A study of Mus musculus with 18 samples.

Results

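Transcripts of 10 genes that encode the subunits of the transcription factor NF-κB and its inhibitors were followed in cultured mouse T cells. The genes are the 5 subunit genes Nfkb1, Nfkb2, Rel, Rela and Relb, and the 5 IκB family genes Nfkbia, Nfkbib, Nfkbid, Nfkbie and Nfkbiz. They were found by symbol among 55487 genes in the deposited table of counts. All 10 passed the filter on low counts, as did 12820 genes in all, with 31 to 2358 counts per library. T cells had been sorted by flow cytometry from spleens of Foxp3 YFP/cre Ebi3 -/- mice, called KO here after their label, and of Foxp3 YFP/cre mice, called WT. The knock-in at Foxp3 is thus shared by every group, and Ebi3 encodes a subunit that IL-27 has in common with IL-35. Treg, CD8 and CD4 cells of each genotype are named, giving 6 groups of 3 libraries. All cells had received IL-2 at 10 ng/ml and antibodies against CD3 (plate-bound) and CD28 at 2 µg/ml each for 72 h, so no group is unstimulated. Whether CD4 cells were Foxp3-negative, and whether a replicate is an animal, a culture or a repeated library, is not said in the labels. The p-values therefore measure the spread between these libraries, which may be technical.

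NF-κB is a dimer of Rel family proteins that IκB proteins hold in the cytoplasm until signals through the T cell receptor, CD28 or tumour necrosis factor receptors cause the IκB to be degraded. The gene of the main inhibitor, Nfkbia, is itself a classical NF-κB target, which makes it a negative feedback loop, whereas the atypical members encoded by Nfkbid and Nfkbiz act in the nucleus. In mice, c-Rel, the product of Rel, is needed for the development of Foxp3-positive regulatory T cells, and the product of Nfkbid contributes to the induction of Foxp3.

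Library totals ran from 841892 to 1089003 counts in Treg-labelled libraries and from 1358671 to 2255950 in CD8 and CD4 libraries. Despite the lower totals, more genes had any count in Treg-labelled libraries, 20034 to 20596 against 16193 to 17338 in CD8 and CD4 libraries. The Treg-labelled libraries thus differed from the rest in their make-up as a whole, and the source of this was not tested. Cd8a marked the CD8 libraries and Cd4 the CD4 libraries, but no library of the 18 held more than 1 count of Foxp3. Treg-labelled libraries held both Cd4, at 34.4 to 68.0 CPM, and Cd8a, at 24.9 to 46.7 CPM. The summed level of the 5 Treg markers Foxp3, Ikzf2, Il2ra, Ctla4 and Tnfrsf18 was 257 to 344 CPM in Treg KO and 215 to 389 CPM in Treg WT libraries, against 852 to 1352 CPM in CD8 and 622 to 1164 CPM in CD4 libraries. Most of that sum is Il2ra and Tnfrsf18, activation genes that are also among the NF-κB targets counted further on. Of the 5 markers, 3 were lower in every Treg-labelled than in any other library, namely Il2ra, Tnfrsf18 and Ctla4. Ctla4 had 16.0 to 25.6 CPM in Treg-labelled against 29.7 to 83.8 CPM in the other libraries. Ikzf2, which encodes the Treg-associated factor Helios, went the other way against CD4 cells, with 34.4 to 71.9 CPM in Treg-labelled, 22.0 to 73.2 CPM in CD8 and 13.1 to 25.3 CPM in CD4 libraries. The markers thus do not settle what the cells were. The libraries are called Treg-labelled below, and nothing here describes Treg cells beyond that label. Among them, 2 of 6 pairs within a genotype and 4 of 9 pairs across genotypes differed by less than the sampling noise of their counts. Replicates 1 and 3 of Treg KO and replicates 1 and 2 of Treg WT were such pairs and were counted as 1 sample each, which leaves n = 2 per genotype. Ebi3 had 20.5, 26.1 and 22.4 CPM in CD4 KO against 60.5, 38.6 and 39.4 CPM in CD4 WT libraries (log2 -0.98, SE 0.19, adjusted p = 0.248), and 24.2 to 34.0 CPM in CD8 KO against 28.0 to 29.6 CPM in CD8 WT libraries. In Treg-labelled cells KO libraries, at 24.6 to 34.5 CPM, and WT libraries, at 25.8 to 40.1 CPM, overlapped. In CD4 cells every KO library thus lay below every WT library. Ebi3 had the lowest p-value of all genes tested there (edgeR, unadjusted p = 1.94e-05), without passing the adjusted threshold. The CD8 and Treg-labelled values do not separate the genotype labels. A 3′ tag can lie outside a deleted part of a gene, and whether it did so here was not tested. All 10 B cell markers were counted in every group, with a summed level of 4800 to 5299 CPM in Treg-labelled, 2677 to 5786 CPM in CD8 and 3197 to 6561 CPM in CD4 libraries.

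Stretches upstream of 4 of the genes are shown because each holds a 10-base match to a κB motif, the sequence that NF-κB dimers bind. The windows are RefSeq sequences of GRCm38.p6, from 250 bases before to 50 bases after an annotated start. Windows were at hand for 7 of the 10 genes, Nfkb1, Relb and Nfkbiz having no entry in the table used. The motifs searched were GGGNNTTTCC and GGGNNTTCCC, each on both strands and free to overlap the other. They were chosen after the windows had been read. Either motif stood in windows of 4 of the 7 genes (Nfkbia, Rel, Nfkb2 and Nfkbid) and in 6 of their 11 windows, against 3.73% of 27025 genes and 3.24% of 32851 windows in the table. Because the motifs were chosen from these windows, the shares do not measure an enrichment. Capitals mark the matches. The Nfkbia stretch (chr12:55492648-55492847, minus strand) has its match at bases -29 to -20 from the start, the base before the start being -1. The Rel stretch (chr11:23770971-23771170, minus strand) holds overlapping matches between bases -92 and -82. In Nfkb2 the stretches chr19:46304688-46304717 and chr19:46304708-46304736 (plus strand) hold a match at -39 to -30 and overlapping matches between -11 and -1, next to an Nfkb2 start that lies inside the first exon of a longer annotated transcript. The Nfkbid stretch (chr7:30422156-30422255, plus strand) has its match at -226 to -217 of an inner start. Rela, Nfkbib and Nfkbie had windows with no match, which says only that these letters are not in those windows.
Nfkbia: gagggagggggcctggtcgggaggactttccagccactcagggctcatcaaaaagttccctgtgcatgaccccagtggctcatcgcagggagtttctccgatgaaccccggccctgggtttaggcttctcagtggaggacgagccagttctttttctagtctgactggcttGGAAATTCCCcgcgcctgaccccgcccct
Rel: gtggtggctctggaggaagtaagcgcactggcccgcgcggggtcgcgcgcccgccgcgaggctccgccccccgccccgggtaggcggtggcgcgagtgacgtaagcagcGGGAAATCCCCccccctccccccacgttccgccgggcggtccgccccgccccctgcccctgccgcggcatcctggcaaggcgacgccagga
Nfkb2, first match: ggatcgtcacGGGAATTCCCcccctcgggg
Nfkb2, second match: cccctcggggggccgaaaGGGGCTTTCCC
Nfkbid: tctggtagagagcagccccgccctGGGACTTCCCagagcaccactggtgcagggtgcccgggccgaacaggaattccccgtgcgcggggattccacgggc

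The question the study's design puts first is what loss of Ebi3 changes in each population, and for these 10 genes no change was called. None of the 10 passed the threshold between KO and WT in CD8, CD4 or Treg-labelled cells or averaged over them (edgeR quasi-likelihood test, adjusted over all genes tested). Among all genes 0.0078% were called in CD8, 0% in CD4, 0% in Treg-labelled cells and 0% over the 3 labels. At an unadjusted p under 0.05, 1 of the 10 passed in CD8 (Nfkbib), against 15.1% of all genes, and 0 in CD4, in Treg-labelled cells and on average, against 6.57%, 1.5% and 2.81%. DESeq2 and limma-voom also called 0 of the 10 in each. The 95% intervals, each for 1 gene, rest on the spread between these libraries, which may be technical. They therefore do not bound an effect of Ebi3 loss across animals. On the log2 scale those of the 10 genes lay within -0.60 to 0.55 in CD8 and -0.51 to 0.45 in CD4 cells. In Treg-labelled cells they lay within -0.61 to 0.52. Averaged over the 3 labels they lay within -0.34 to 0.29, where KO effects of opposite sign would cancel.

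Nfkbib, which encodes IκBβ, an inhibitor that is degraded more slowly than IκBα, stood out most among the 10 in CD8 cells. It had 119.6, 106 and 101 CPM in CD8 KO libraries, against 138, 154 and 126 CPM in CD8 WT libraries. Each KO library thus lay below each WT library, as in 8.24% of all genes tested, and the difference missed the threshold (log2 -0.36, SE 0.11, adjusted p = 0.156, interval -0.59 to -0.12). In CD4 cells the order was turned, with 143, 125 and 131 CPM in KO and 127, 116 and 113 CPM in WT libraries, and the groups overlapped (log2 0.17, SE 0.12, adjusted p = 0.786). The KO effect in CD4 minus that in CD8 was 0.53 on the log2 scale (SE 0.16, adjusted p = 0.141), which also missed the threshold, where 0% of all genes were called. Without CD8 WT replicate 3 that difference was 0.60, with an adjusted p of 0.0391, while 631 of all genes were then called against 0 with it. Exons of Nfkbib (chromosome 7, 28758251 to 28767512, minus strand) overlap those of Sirt2 and Ccer2 on the other strand, and whether counting used strand is not given in the sources used here. The summed B cell markers were 4731, 4178 and 5786 CPM in CD8 KO against 2677, 3092 and 4611 CPM in CD8 WT libraries, and the 6 T cell markers summed to 919 to 1273 CPM against 1188 to 1734 CPM. Their part in the Nfkbib values was not tested. In RNA from many cells, fewer cells of a type and less RNA per cell cannot be told apart.

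Nfkb2 encodes the precursor that is processed in the non-canonical pathway. It had 103, 90.5 and 86.2 CPM in CD8 KO and 114, 119 and 108 CPM in CD8 WT libraries (log2 -0.29, SE 0.15, adjusted p = 0.381). Relb, whose product pairs with processed Nfkb2 protein, had 29.8, 29.8 and 30.7 CPM in CD8 KO and 28.1, 24.9 and 27.7 CPM in CD8 WT libraries (log2 0.16, SE 0.19, adjusted p = 0.729). In both genes the CD8 groups did not overlap, Nfkb2 lying below and Relb above WT, where 9.19% of all genes had every KO library above every WT library. Neither passed the test, and in CD4 and Treg-labelled cells the KO and WT libraries of all 10 genes overlapped. Background shares of groups that did not overlap were 4.86% above and 4.71% below in CD4 cells, and 4.74% above and 4.64% below in Treg-labelled cells.

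The other 7 genes differed between KO and WT by -0.25 to 0.12 on the log2 scale in any of the 3 populations. Nfkbia, the gene with the most counts, had the narrowest interval in each, -0.25 to 0.26 in Treg-labelled, -0.27 to 0.13 in CD8 and -0.22 to 0.18 in CD4 cells. Relb, with the fewest counts, had the widest in each, -0.61 to 0.34 in Treg-labelled, -0.23 to 0.55 in CD8 and -0.37 to 0.40 in CD4 cells. The 3 tests of a difference in KO effect between populations called 0 of the 10 genes, where 0% of all genes were called in each. At an unadjusted p under 0.05 these tests passed 1 of the 10 for CD4 minus CD8, which is Nfkbib, and 0 for Treg-labelled minus CD8 and minus CD4 cells, against 16.6%, 5.59% and 2.96% of all genes. Since Treg-labelled libraries of opposite genotype label differed by less than sampling noise in 4 of 9 pairs, the KO comparison in them rests on libraries that the counts do not separate.

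**Figure D1:**
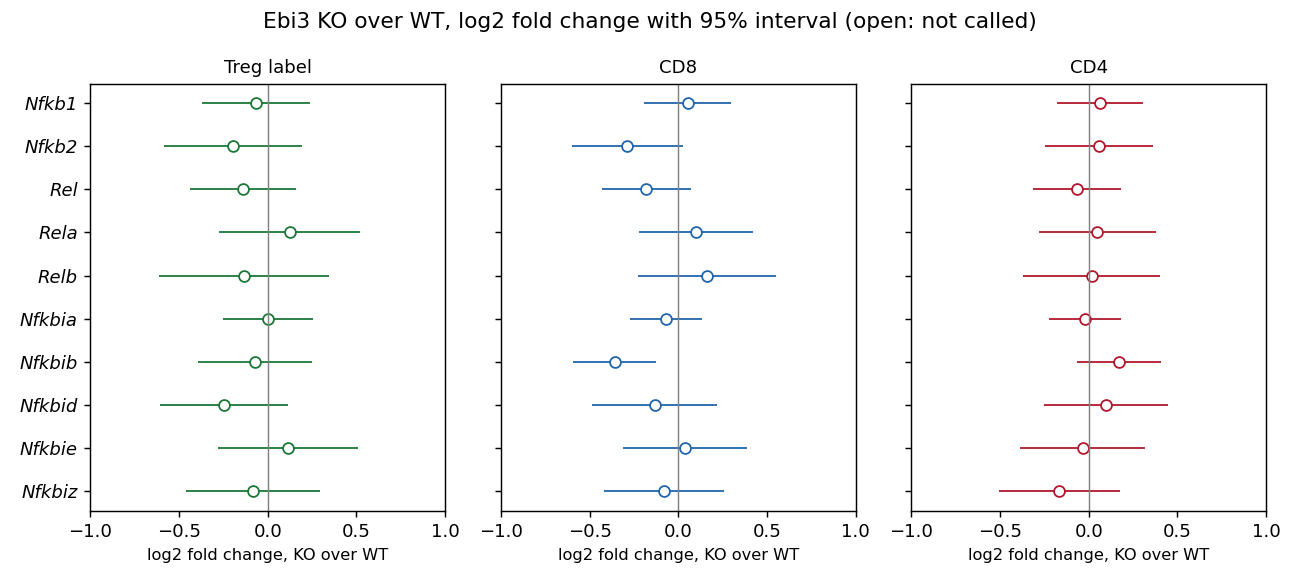
Log2 fold change of KO over WT for each of the 10 genes in Treg-labelled, CD8 and CD4 cells, with 95% intervals from the edgeR fit. All points are open because none passed the threshold. Nfkbib in CD8 cells, at -0.36, is the one gene whose interval does not reach 0.

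Between CD8 and CD4 cells the inhibitor gene Nfkbia was the one member called, lower in CD8 cells in both genotypes. It had 683, 656 and 567 CPM in CD8 KO libraries, against 1029.6, 829 and 802 CPM in CD4 KO libraries. It had 636, 693 and 668 CPM in CD8 WT libraries, against 808, 987 and 903 CPM in CD4 WT libraries. All 6 CD8 libraries, at 567 to 693 CPM, lay below all 6 CD4 libraries, at 802 to 1029.6 CPM. The fold change was 0.72 in KO (log2 -0.48, SE 0.10, adjusted p = 0.00314) and 0.74 in WT (log2 -0.43, SE 0.10, adjusted p = 0.00815). Of all genes tested 3.15% were called in KO, 1.13% as higher and 2.02% as lower, and 4.26% in WT, 2.85% as higher and 1.41% as lower. Each call was lost without 1 library. Without CD4 KO replicate 1 the adjusted p in KO was 0.0565 at log2 -0.36, and without CD8 WT replicate 1 that in WT was 0.0567 at log2 -0.40. B cell markers varied within the groups as well. In CD8 KO and CD4 WT cells the library with the highest B cell sum, 5786 and 6561 CPM, had the least Nfkbia of its group, and in CD4 KO cells the one with the lowest sum, 3197 CPM, had the most. In CD8 WT cells the library with the lowest sum, 2677 CPM, had the least Nfkbia. The part of B cells in the Nfkbia values was not tested.

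Nfkb2 and Nfkbib were also lower in each CD8 KO than in each CD4 KO library, without passing the threshold. Nfkb2 had 103, 90.5 and 86.2 CPM in CD8 KO, against 141, 108 and 143 CPM in CD4 KO libraries (log2 -0.49, SE 0.15, adjusted p = 0.0804). It passed when the fit held only the 12 CD8 and CD4 libraries (adjusted p = 0.0361), and without CD4 KO replicate 2 (0.0282) or Treg KO replicate 2 (0.0411). In WT libraries the groups overlapped, at 114, 119 and 108 CPM in CD8 and 117, 143 and 116 CPM in CD4 (log2 -0.14, SE 0.15, adjusted p = 0.65). Nfkbib differed by -0.29 in KO and 0.24 in WT on the log2 scale, with adjusted p-values of 0.201 and 0.265. Exons of Nfkb2 (chromosome 19, 46304320 to 46312385, plus strand) overlap those of Psd and AC114539.1 on the other strand, so its counts are uncertain in the way those of Nfkbib are. Including Nfkb1, 4 of the 10 genes had all CD8 KO below all CD4 KO libraries, where 8.99% of all genes did. In WT this held for Nfkbia alone, against 7.75%. The reverse, all CD8 above all CD4 libraries, held for 0 of the 10 in either genotype, against 10.1% of all genes in KO and 11.2% in WT. The subunit genes Rel, Rela and Relb and the IκB family genes Nfkbid, Nfkbie and Nfkbiz overlapped between CD8 and CD4 libraries in both genotypes, with log2 differences of -0.23 to 0.11.

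Treg-labelled libraries differed from both other populations in most of the 10 genes, on a background in which many genes differed. Against CD4 cells, 5 were called higher and 2 lower in KO, and 6 higher and 1 lower in WT. Of all genes 44.4% were called in KO (25.7% higher, 18.6% lower) and 39.4% in WT (22.9% higher, 16.5% lower). Against CD8 cells, 6 were higher and 0 lower in KO, and 8 higher and 1 lower in WT, where 40.6% (23.3% higher, 17.3% lower) and 46.7% (26.8% higher, 19.9% lower) of all genes were called. Every Treg-labelled library lay above every CD4 library in 7 of the 10 genes in KO and 6 in WT (all genes 32.8% and 28.7%), and below in 2 and 2 (24.4% and 21.6%). Against CD8 libraries the counts were 7 in KO and 8 in WT above (30.1% and 32.8%), and 0 and 1 below (25.2% and 25.1%). The median log2 difference of the 10 genes was 0.56 in KO and 0.60 in WT against CD4 cells, beside 0.10 and 0.05 over all genes tested. Against CD8 cells it was 0.57 in KO and 0.66 in WT, beside 0.04 and 0.10. The scaling of libraries shifted these: with totals alone, the split in WT against CD4 cells was 2451 higher and 2678 lower, in place of 2938 and 2110, and the median of all genes moved to -0.06 against CD4 and to -0.01 against CD8 cells in WT. No called member changed direction with the scaling. The comparisons against CD4 and against CD8 cells share their Treg-labelled libraries.

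**Figure D2:**
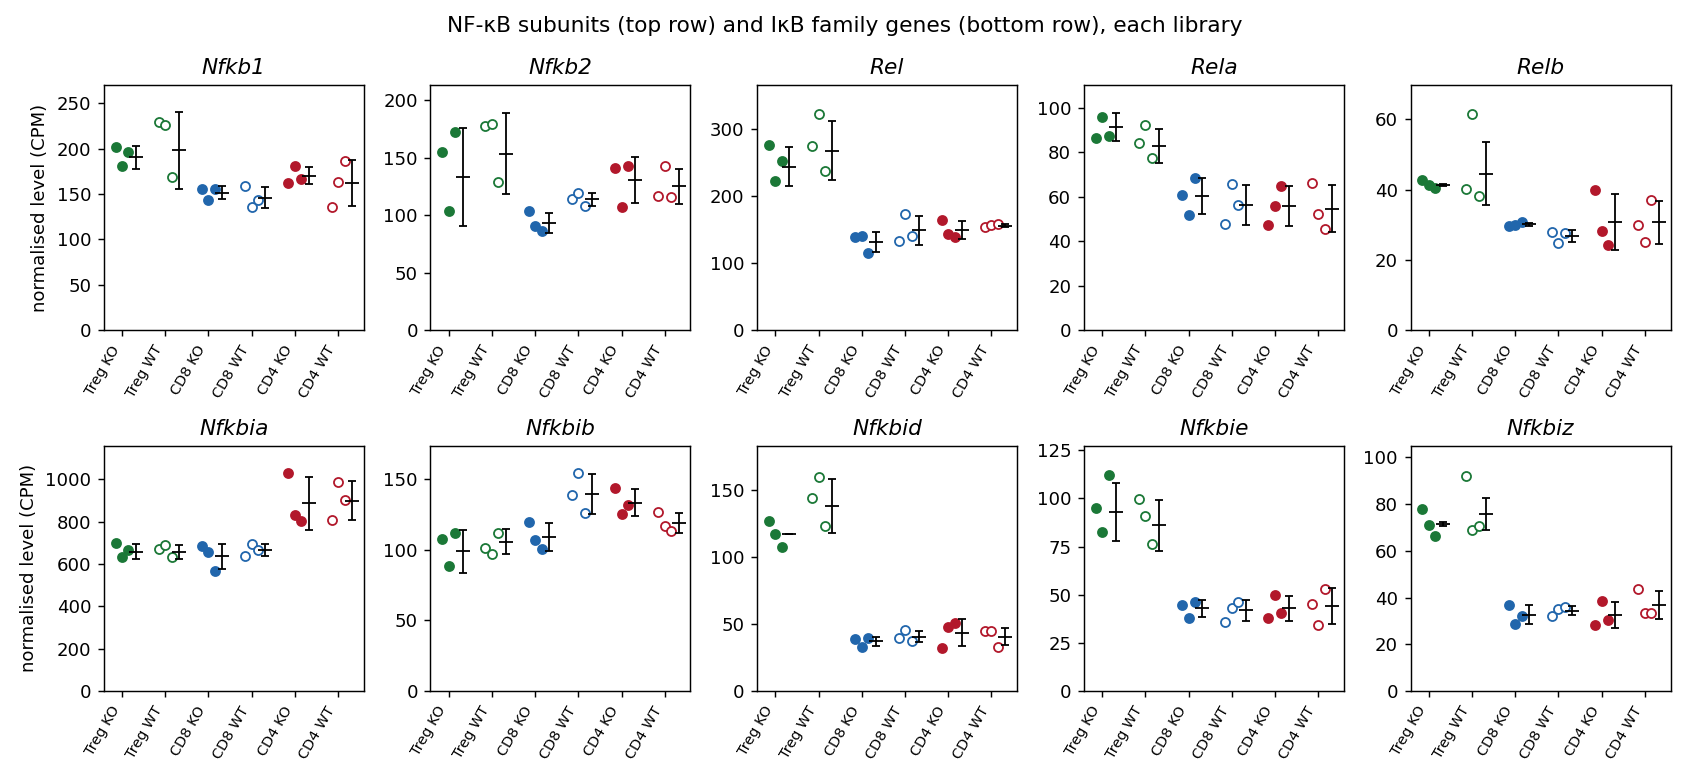
Normalised level (CPM) of each gene in each library, by population and genotype; filled points are KO and open points WT. Bars give the mean and SD over 3 libraries, or over 2 samples in Treg-labelled groups, where near-identical libraries count as 1 sample. Nfkbid, Nfkbie, Nfkbiz, Rel and Rela lie higher in every Treg-labelled library than in any CD8 or CD4 library, and Nfkbia lies highest in CD4 libraries.

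The largest difference among the 10 was that of Nfkbid, which encodes the atypical nuclear IκB protein IκBNS. It had 127, 117 and 107 CPM in Treg KO and 144, 159.8 and 123 CPM in Treg WT libraries. CD8 KO libraries had 39.0, 32.9 and 39.3 CPM, CD8 WT libraries 39.6, 45.2 and 37.1 CPM, CD4 KO libraries 32.3, 48.0 and 50.5 CPM and CD4 WT libraries 44.4, 44.4 and 33.2 CPM. The lowest Treg-labelled library, at 107 CPM, was thus above the highest of the other 12, at 50.5 CPM. Nfkbid was 2.69-fold higher than in CD4 cells in KO (log2 1.43, SE 0.17, adjusted p = 1.99e-07) and 3.41-fold higher in WT (log2 1.77, SE 0.17, adjusted p = 1.32e-08). Against CD8 cells it was 3.15-fold higher in KO (log2 1.66, SE 0.18, adjusted p = 3.55e-08) and 3.41-fold higher in WT (log2 1.77, SE 0.17, adjusted p = 4.8e-09). Ordered by p-value among the 12820 genes, Nfkbid stood at place 283 in KO and 54 in WT against CD4 cells, and at place 122 in KO and 100 in WT against CD8 cells.

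Nfkbiz, which encodes the other atypical nuclear IκB protein in the list, IκBζ, was higher in Treg-labelled cells too. It had 78.0, 70.8 and 66.4 CPM in Treg KO and 92.1, 68.8 and 70.7 CPM in Treg WT libraries. The CD8 libraries held 28.8 to 36.8 CPM and the CD4 libraries 28.4 to 43.7 CPM, so neither overlapped with the Treg-labelled libraries. The log2 difference was 1.15 in KO (adjusted p = 6.31e-06) and 1.06 in WT (2.44e-05) against CD4 cells, and 1.14 in KO (9.14e-06) and 1.14 in WT (5.54e-06) against CD8 cells, all by edgeR. Nfkbie, which encodes the cytoplasmic inhibitor IκBε, rose by a like amount. It had 95.02, 82.3 and 112 CPM in Treg KO and 99.9, 90.9 and 76.5 CPM in Treg WT libraries, against 36.1 to 46.5 CPM in CD8 and 34.3 to 52.8 CPM in CD4 libraries. Its log2 difference was 1.13 in KO and 0.99 in WT against CD4 cells, and 1.13 in KO and 1.05 in WT against CD8 cells, with edgeR adjusted p-values of 1.01e-05 to 0.00011.

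The summed level of 11 myeloid and dendritic cell markers was also highest in the Treg-labelled libraries. It was 125 to 136 CPM in Treg KO and 133 to 163 CPM in Treg WT, against 114 to 122 CPM in CD8 KO, 68.6 to 93.4 CPM in CD8 WT, 88.4 to 98.1 CPM in CD4 KO and 94.0 to 118 CPM in CD4 WT libraries. All 11 markers were counted except Cd14, Adgre1 and Flt3, which were at 0 in CD8 WT, and Cd14, at 0 in CD4 WT libraries. Cst3, at 52.4 to 101 CPM in Treg-labelled and 44.2 to 97.3 CPM in the other libraries, was the largest part of each sum and overlapped. Adgre1, S100a8 and S100a9 were higher in every Treg-labelled than in any other library, as 3 of the 11 markers, with 2.46 to 9.08 against 0 to 1.45 CPM for Adgre1, 12.2 to 16.0 against 2.62 to 11.9 CPM for S100a8 and 6.69 to 14.7 against 1.002 to 6.23 CPM for S100a9. Lyz2, at 7.37 to 15.6 against 1.503 to 8.35 CPM, Csf1r, at 2.46 to 13.4 against 0 to 2.57 CPM, and Flt3, at 0 to 6.15 against 0 to 0.728 CPM, had higher means in both Treg-labelled groups than in the other 4. Several of these values rest on few counts, 3 counts being 2.87 to 3.89 CPM in Treg-labelled and 1.31 to 2.19 CPM in other libraries. For Adgre1 the lowest Treg-labelled value, 2.46 CPM, is under 3 counts, and the highest other value, 1.45 CPM, is 3 counts. Of the 10 B cell markers, 2 lay higher in every Treg-labelled library, Cd79a at 15.3 to 32.9 against 3.93 to 13.1 CPM and Pax5 at 262 to 312 against 111 to 254 CPM. The other 8 overlapped, as did the B cell sums, 4800 to 5299 against 2677 to 6561 CPM. All 7 erythroid markers overlapped, with sums of 1207 to 1273 against 635 to 1518 CPM. The part of other cell types in the Nfkbid, Nfkbiz and Nfkbie values was not tested.

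The inhibitor genes Nfkbia and Nfkbib were not called higher in any comparison of Treg-labelled cells, unlike Nfkbie, Nfkbid and Nfkbiz. Nfkbia had 700.5, 632 and 666 CPM in Treg KO and 672, 689 and 632 CPM in Treg WT libraries. Each of these was below each CD4 library, and in the edgeR fit Nfkbia fell by 0.43 in KO (adjusted p = 0.00271) and by 0.45 in WT (0.00199) on the log2 scale. The Treg-labelled and CD8 libraries overlapped in Nfkbia, with intervals of the log2 difference of -0.18 to 0.28 in KO and -0.25 to 0.21 in WT. Nfkbib had 107, 88.1 and 112 CPM in Treg KO and 101, 97.1 and 112 CPM in Treg WT libraries. It was called lower than in CD4 cells in KO (log2 -0.42, SE 0.14, adjusted p = 0.0145) and lower than in CD8 cells in WT (log2 -0.41, SE 0.14, adjusted p = 0.0147), and in neither of the other pairs. The Nfkbib call against CD4 cells was lost without CD4 KO replicate 1 (adjusted p = 0.0559) or Treg KO replicate 2 (0.185), and that against CD8 cells without CD8 WT replicate 2 (0.0657).

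Among the subunits, Rel was called higher in Treg-labelled cells in all 4 comparisons. It had 277, 223 and 252 CPM in Treg KO and 275, 322 and 237 CPM in Treg WT libraries. The CD8 libraries held 115 to 174 CPM and the CD4 libraries 139 to 164 CPM, all below the lowest Treg-labelled library. Rel was 1.64-fold higher in KO (log2 0.72, SE 0.13, adjusted p = 7.78e-05) and 1.73-fold higher in WT (log2 0.79, SE 0.13, adjusted p = 3.22e-05) than in CD4 cells, and 1.86-fold higher in KO (log2 0.90, SE 0.13, adjusted p = 5.77e-06) and 1.81-fold higher in WT (log2 0.86, SE 0.13, adjusted p = 6.93e-06) than in CD8 cells. Rela, which encodes the main transactivating subunit of the canonical pathway, was called in the same 4 comparisons. It had 86.5, 95.7 and 87.3 CPM in Treg KO and 84.3, 92.2 and 77.4 CPM in Treg WT libraries, against 47.6 to 68.5 CPM in CD8 and 45.5 to 66.3 CPM in CD4 libraries. Its log2 differences were 0.70 in KO and 0.63 in WT against CD4, and 0.59 in KO and 0.56 in WT against CD8 cells. The Rela call against CD8 cells was lost in KO without Treg KO replicate 2 (adjusted p = 0.0722) and in WT without CD8 WT replicate 1 (0.0538).

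The other 3 subunit genes gave fewer calls. Relb had 42.6, 41.2 and 40.6 CPM in Treg KO and 40.2, 61.4 and 38.2 CPM in Treg WT libraries, against 24.9 to 30.7 CPM in CD8 and 24.3 to 39.7 CPM in CD4 libraries. Replicate 2 of Treg WT stood above the rest, and without it both calls of Relb, which were in WT, were lost (adjusted p = 0.25 against CD4 and 0.0634 against CD8 cells, in place of 0.0341 and 0.00463). The Relb call against CD4 cells was also lost without CD4 WT replicate 1 or 2 (0.0524 and 0.153), with DESeq2 (0.101) and with total counts as scaling (0.085), and in KO it was gained without CD4 KO replicate 1 (0.0177, in place of 0.109). Nfkb1, which encodes the precursor of the most common NF-κB subunit, had 202, 181 and 197 CPM in Treg KO and 229.6, 226 and 168 CPM in Treg WT libraries. It was called higher than in CD8 cells in WT (log2 0.45, SE 0.13, adjusted p = 0.00693), and was at the threshold in KO (log2 0.33, SE 0.13, adjusted p = 0.0505), where leaving out Treg WT replicate 1 or 3 or CD4 WT replicate 1 or 3 brought it past (adjusted p = 0.0239 to 0.0491). Against CD4 cells it missed the threshold in WT (adjusted p = 0.0834) and passed without Treg WT replicate 3 (0.0187) or CD4 WT replicate 3 (0.0307). With all 18 libraries counted separately, Nfkb1 passed in KO against CD8 cells (adjusted p = 0.0203) and in WT against CD4 cells (0.0216). Nfkb2 had 155, 103 and 172 CPM in Treg KO and 178, 179 and 129 CPM in Treg WT libraries. It was called higher than in CD8 cells in KO (log2 0.54, SE 0.17, adjusted p = 0.0139) and in WT (log2 0.45, SE 0.17, adjusted p = 0.0305), where the WT call was lost with DESeq2 (0.0778), with total counts (0.0972) and without any 1 of CD8 WT replicates 1 and 3 and Treg WT replicates 1 and 2 (0.0529 to 0.0706). The Nfkb2 levels of Treg KO and CD8 KO libraries overlapped, Treg KO replicate 2 and CD8 KO replicate 1 lying both at 103 CPM.

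**Figure D3:**
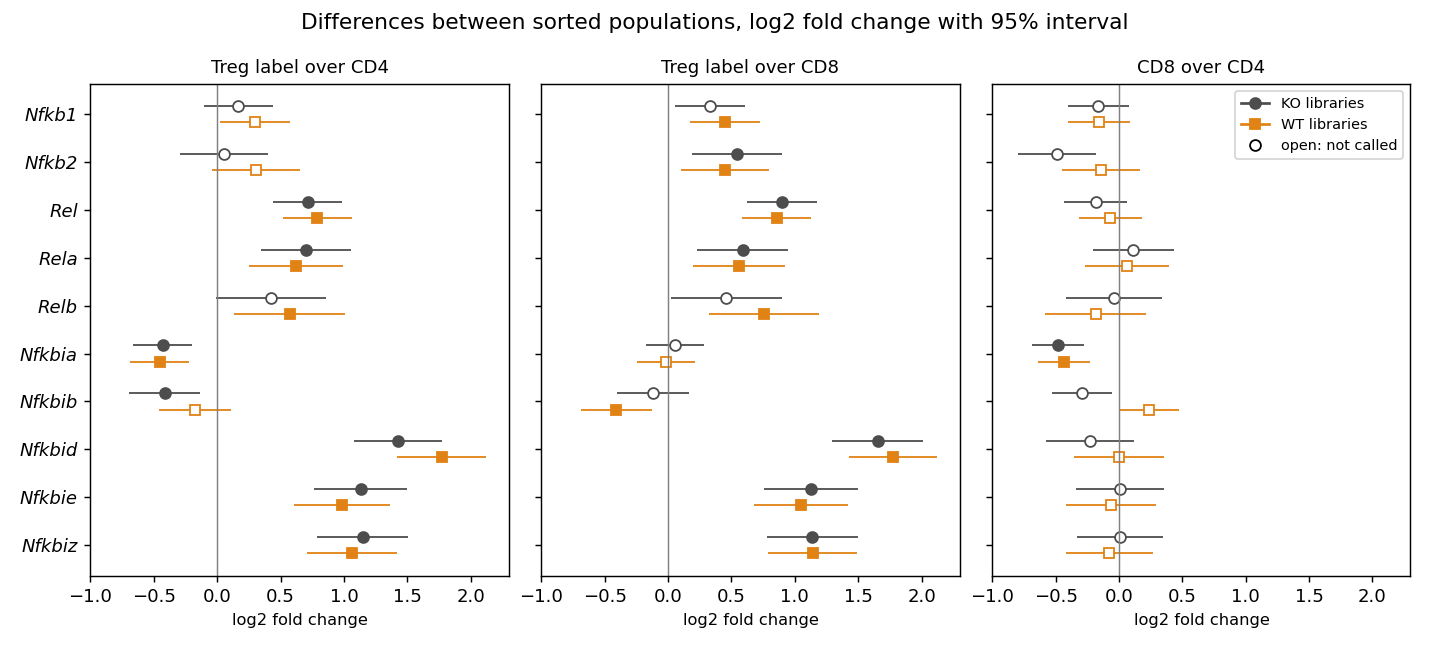
Log2 fold change of each gene between populations, with 95% intervals from the edgeR fit: Treg-labelled over CD4, Treg-labelled over CD8, and CD8 over CD4, in KO (circles) and WT (squares). Filled points passed the threshold. Nfkbid lies farthest from 0 in both comparisons of Treg-labelled cells, between 1.43 and 1.77, and Nfkbia is the one gene filled between CD8 and CD4.

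No difference of these cell type contrasts between genotypes was called for any of the 10. The Treg-labelled minus CD4 contrast in KO less that in WT was -0.34 for Nfkbid (interval -0.85 to 0.16) and 0.15 for Nfkbie (interval -0.38 to 0.68), the members at the lower and upper end. Relb, called against CD4 cells in WT and not in KO, differed between genotypes by -0.15 (interval -0.77 to 0.46), so that the calls do not show a difference of genotypes.

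Within the Treg label, 2 libraries had less of several members than the others. These were replicate 2 of Treg KO and replicate 3 of Treg WT, the libraries outside the pairs counted as 1 sample. Although they bear opposite genotype labels, these 2 differed from each other by less than sampling noise. They had the lowest level of their genotype in Nfkb1, Nfkb2, Rel and Nfkbia, for Nfkb2 103 CPM against 155 and 172 CPM in the other Treg KO libraries, and 129 CPM against 178 and 179 CPM in the other Treg WT libraries. In the same 2 libraries Cd4 was highest, at 68.0 and 60.2 CPM against 34.4 to 47.5 CPM in the other 4, and Cd8a was lower, at 24.9 and 29.6 CPM against 41.4 to 46.7 CPM. The summed T cell markers were 1156 and 1079 CPM in them, against 785 to 1009 CPM. The same 2 libraries were the deepest of the Treg-labelled ones, at 1085238 and 1089003 counts against 841892 to 882659. Their scaling factors were the highest as well, 0.976 and 0.975 against 0.931 to 0.954. Whether the marker shifts, depth or scaling bear on the NF-κB genes was not tested.

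Nfkbia made up a smaller share of the counts of the 10 genes in Treg-labelled than in the other cells. By library the share was 37.5%, 38.7% and 36.8% in Treg KO, 35.1%, 34.7% and 38.0% in Treg WT, 48.4%, 49.7% and 45.7% in CD8 KO, 46.7%, 46.5% and 48.1% in CD8 WT, 56.4%, 51.6% and 50.3% in CD4 KO and 51.4%, 56.2% and 53.8% in CD4 WT. The 3 populations did not overlap, and the genotypes overlapped within each. The summed level of the 10 genes was 1738 ± 146 CPM in Treg KO and 1808 ± 203 CPM in Treg WT (SD, n = 2 samples each), against 1324 ± 86.0 CPM in CD8 KO, 1414 ± 67.1 CPM in CD8 WT, 1675 ± 131 CPM in CD4 KO and 1668 ± 92.7 CPM in CD4 WT (SD, n = 3 each). The CD8 libraries lay lowest, at 1240.0 to 1491 CPM, below the 1571 to 1987 CPM of all other libraries. The sum of the 5 IκB genes over that of the 5 subunit genes, a ratio of 3′ tags that does not measure protein, was 1.42 to 1.54 in Treg KO, 1.26 to 1.56 in Treg WT, 1.72 to 1.89 in CD8 KO, 1.83 to 1.92 in CD8 WT, 1.96 to 2.29 in CD4 KO and 2.09 to 2.25 in CD4 WT libraries.

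**Figure D4:**
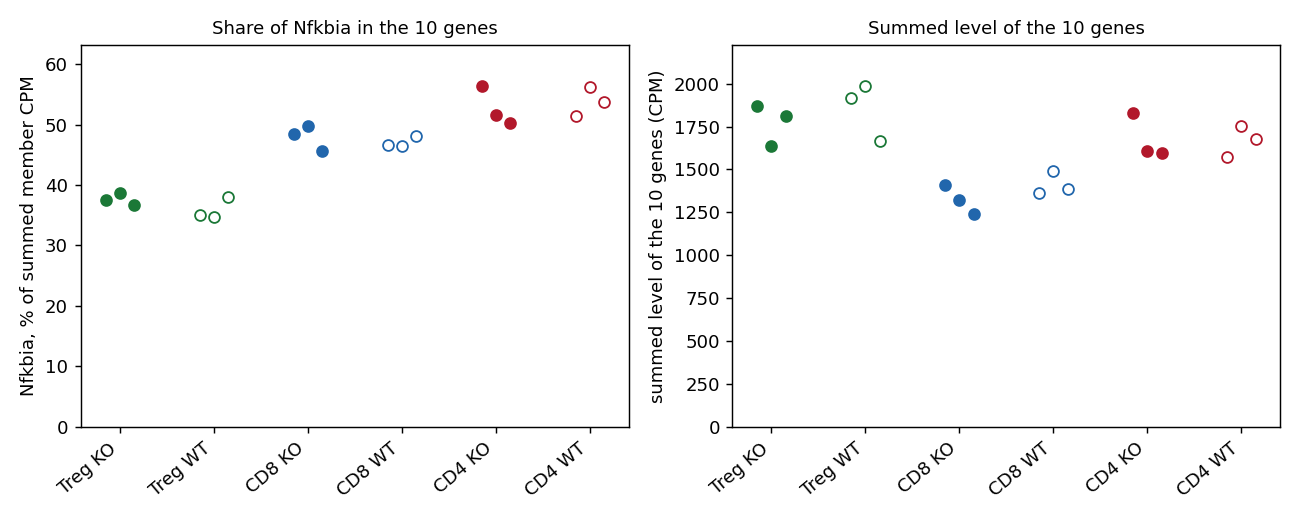
Left, Nfkbia as a percentage of the summed CPM of the 10 genes in each library; right, that sum in CPM; filled points are KO and open points WT. The share is lowest in Treg-labelled libraries, at 34.7% to 38.7%, and highest in CD4 libraries, at 50.3% to 56.4%, and the sum is lowest in CD8 libraries.

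Genes that act upstream of IκB degradation were followed as well. Of 20 activating genes, 0 were called between KO and WT in any population, and 0 between CD8 and CD4 cells. Against CD4 cells, 3 were higher and 0 lower in Treg-labelled KO libraries, and 1 higher and 1 lower in WT, with median log2 differences of 0.05 and -0.00. Against CD8 cells the counts were 2 and 0 in KO and 3 and 1 in WT, with medians of 0.02 and -0.05. The shares called, 15% in KO and 10% in WT against CD4 and 10% in KO and 20% in WT against CD8 cells, were below the 44.4%, 39.4%, 40.6% and 46.7% of all genes. Sharpin, a subunit of the linear ubiquitin ligase that helps to activate the IκB kinase, was higher in all 4: it averaged 62.1 ± 8.29 CPM in Treg KO and 70.6 ± 1.20 CPM in Treg WT (SD, n = 2 samples each), against 43.3 ± 1.67 CPM in CD8 KO, 41.3 ± 3.25 CPM in CD8 WT, 37.8 ± 4.80 CPM in CD4 KO and 41.5 ± 3.87 CPM in CD4 WT (SD, n = 3 each). Ikbkb, a catalytic subunit of the IκB kinase, was called in KO against CD4 cells (log2 0.42, SE 0.13, adjusted p = 0.00898) and in WT against CD8 cells (log2 0.40, SE 0.13, adjusted p = 0.0125), as was Bcl10, an adaptor between the antigen receptor and that kinase (log2 0.48, SE 0.14, adjusted p = 0.00525 and log2 0.40, SE 0.14, adjusted p = 0.0186), all of these higher in Treg-labelled cells. Traf6, a ubiquitin ligase that relays receptor signals to that kinase, was lower in WT against CD4 cells (log2 -0.95, SE 0.29, adjusted p = 0.00965). Rbck1, another subunit of the linear ubiquitin ligase, was lower in WT against CD8 cells (log2 -0.53, SE 0.16, adjusted p = 0.00683), and Rnf31, its catalytic subunit, was higher in KO against CD8 cells (log2 0.50, SE 0.20, adjusted p = 0.0453).

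Of 16 genes that restrain the pathway, 0 were called between KO and WT. Between CD8 and CD4 cells, Nlrc3, a negative regulator of the NLR family, was higher in CD8 WT (log2 0.88, SE 0.24, adjusted p = 0.0271), N4bp1 was higher in CD8 KO (log2 0.52, SE 0.13, adjusted p = 0.0255) and Tnip1, a partner of the deubiquitinase A20, was lower in CD8 KO libraries (log2 -0.48, SE 0.13, adjusted p = 0.0242). In Treg-labelled libraries 5 were higher and 2 lower in KO, and 5 higher and 2 lower in WT against CD4 cells. Against CD8 cells these were 4 and 1 in KO and 5 and 3 in WT. Their medians were 0.13 and 0.34 against CD4, and 0.20 and 0.21 against CD8 cells, in KO and in WT. The shares called, 43.8% in KO and 43.8% in WT against CD4 and 31.2% in KO and 50% in WT against CD8 cells, stand beside 44.4%, 39.4%, 40.6% and 46.7% of all genes, none of them far from that background. Itch, a ubiquitin ligase that works with A20, was higher in all 4, with 90.7 ± 7.12 CPM in Treg KO and 93.9 ± 4.34 CPM in Treg WT (SD, n = 2 samples each) and group means of 43.6 to 51.4 CPM elsewhere. Tnfaip3, which encodes A20 and is itself an NF-κB target, was called higher in WT against CD4 (log2 1.13, SE 0.39, adjusted p = 0.0218) and CD8 cells (log2 1.07, SE 0.38, adjusted p = 0.0218). Otulin, a deubiquitinase of linear chains, was lower against CD8 cells in KO (log2 -0.78, SE 0.15, adjusted p = 0.000122) and WT (log2 -0.88, SE 0.15, adjusted p = 2.33e-05). In the edgeR fit it was also lower against CD4 cells in KO (log2 -0.53, SE 0.15, adjusted p = 0.00469), as was Tnip1 (log2 -0.69, SE 0.15, adjusted p = 0.000465). Nlrc3 was higher against CD4 cells in KO (log2 0.68, SE 0.27, edgeR adjusted p = 0.0410) and WT (log2 1.17, SE 0.27, adjusted p = 0.000999).

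Of 32 genes known as NF-κB targets, 31 passed the filter and 0 were called between KO and WT. Between CD8 and CD4 cells, 4 were higher and 6 lower in KO, and 7 higher and 3 lower in WT, among them Ifng and Ccl3, higher in CD8 cells in both. The target with the largest difference was Cd40lg, lower in CD8 cells in both (log2 -7.08 in KO and -8.61 in WT). Against CD4 cells, 9 were higher and 14 lower in Treg-labelled KO libraries, and 10 higher and 12 lower in WT, with medians of -0.35 and -0.15. Against CD8 cells they were 9 and 16 in KO and 10 and 14 in WT, with medians of -0.44 and -0.66. Of the 31 genes, 29% were called higher and 45.2% lower in KO and 32.3% and 38.7% in WT against CD4 cells, beside 25.7% and 18.6% in KO and 22.9% and 16.5% in WT of all genes. Against CD8 cells these were 29% higher and 51.6% lower in KO and 32.3% and 45.2% in WT, beside 23.3% and 17.3% in KO and 26.8% and 19.9% in WT. The medians over all genes were 0.10 and 0.05 against CD4 and 0.04 and 0.10 against CD8 cells, in KO and in WT. Lta, which encodes lymphotoxin alpha, had 9.68 ± 0.154 CPM in Treg KO and 9.97 ± 1.93 CPM in Treg WT (SD, n = 2 samples each), against 92.7 ± 12.6 CPM in CD8 KO, 108 ± 17.6 CPM in CD8 WT, 85.5 ± 27.6 CPM in CD4 KO and 77.5 ± 21.8 CPM in CD4 WT (SD, n = 3 each). Tnfrsf4, which encodes the costimulatory receptor OX40, had 45.1 ± 0.199 CPM in Treg KO and 43.4 ± 2.15 CPM in Treg WT, against 214 ± 54.9 CPM in CD8 KO, 292 ± 58.5 CPM in CD8 WT, 425 ± 54.9 CPM in CD4 KO and 326 ± 98.2 CPM in CD4 WT. Cd40lg went the other way against CD8 cells, being higher in Treg-labelled cells (log2 6.72 in KO and 7.93 in WT).

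By the rule for likeness, the 2 genes most correlated with each member over the 12 CD8 and CD4 libraries were taken among 8055 genes. Those 12 libraries differ in depth and hold 2 cell types. Each gene was picked for its high r, so the values are high by selection and describe these libraries only. For Nfkbia they were Prkca (Pearson r = 0.98) and Inpp4b (0.95), for Rel Foxp4 (0.93) and Isoc2a (0.88), for Nfkb2 Cdc40 (0.95) and Kif4 (0.93), and for Nfkbib Frg1 (0.93) and Senp6 (0.93). Relb had the least alike neighbours, Ulk1 and Ice1, both with r = 0.80. Nfkb1 was nearest to Golga5 and Psmb9 (0.90 each), Rela to Emc10 (0.87) and Idh3g (0.86), Nfkbid to Ppp1r18 (0.90) and Ints7 (0.88), Nfkbie to Zfp945 (0.87) and Brf1 (0.84), and Nfkbiz to Spi1 (0.89) and Gimap4 (0.88). Among the members themselves, r over the 12 libraries was 0.78 for Nfkb2 with Nfkbia and 0.69 for Rel with Nfkbia, and -0.78 for Relb with Nfkbid. Nfkbid, Nfkbie and Nfkbiz, alike over all 18 libraries (r of 0.91 to 0.96), had r of 0.01 to 0.52 over those 12, so that their likeness lay in the difference of Treg-labelled libraries from the rest.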

How the data were processed

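The authors deposited 1 table of raw counts, with Ensembl genes in rows and the 18 libraries in columns, and 0 columns were left unused. Libraries were made from 500 ng total RNA by QuantSeq 3′ FWD with molecular identifiers, per the labels' protocols, so a read lies near a transcript's 3′ end. Per the submitters' processing notes, the tools included STAR 2.5.3a, cutadapt 2.10, UMI-tools 1.0.0 and, from Subread 2.0.0, featureCounts, with the build GRCm38. The sources used here give neither annotation release nor strand setting.

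Gene symbols and positions came from GENCODE for GRCm38, which named 55141 of the 55487 genes. The fit used edgeR 4.0.16 (R 4.3.3). After filterByExpr, set to at least 10 counts, 12820 genes remained. Libraries were scaled by TMM (factors 0.931 to 1.05), and glmQLFit was run on the means of the 6 groups, with 16 samples and 10 residual degrees of freedom. The 2 Treg-labelled pairs of the same genotype label whose counts did not differ (chi-square p over 0.05, taken over genes whose counts summed to 20 or more) were summed. Contrasts were tested with glmQLFTest, adjusted by Benjamini-Hochberg over all genes, and called at 0.05. The steps were tested on simulated data. CPM values use the TMM-scaled library size. For 1 value in 3 libraries against 3, the smallest exact permutation p is 0.1. Correlations used log2 CPM with a prior count of 2 among genes averaging at least 4 on that scale.

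The 10 members, the gene lists and the comparisons were chosen with earlier results of these data known. Named besides the members are label checks, at most 4 called genes per pathway list and comparison by absolute fold change, and the 2 genes most like each member. Some of the genes that this rule picks are counted without being named. Alternatives used other scaling, no filter, DESeq2 1.42.0, limma-voom (limma 3.58.1), all 18 libraries separate, fewer groups, a fold change over 1.5, a replicate block and each library left out.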

Additional observations from a re-analysis of the deposited data

How the results depend on the processing

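Over 29 alternatives at most for each comparison, no log2 difference of a member that was called changed sign, and the counts of members called between KO and WT stayed at 0 in CD8, CD4 and Treg-labelled cells and on average. Requiring a fold change over 1.5 left 0 of 10 members called between CD8 and CD4 cells in KO and 0 in WT, 3 in KO and 3 in WT for Treg-labelled against CD4 cells, and 4 in WT for Treg-labelled against CD8 cells. Between CD8 and CD4 cells in KO, 2 members in place of 1 were called with no filter on low counts, with the groups compared only and with the 12 CD8 and CD4 libraries, Nfkb2 being the one added. Leaving out 1 library gave 0 to 2 members in that comparison, 0 to 1 between CD8 and CD4 cells in WT, and 0 to 1 for the difference of the KO effect in CD4 minus CD8 cells, where the one called was Nfkbib without CD8 WT replicate 3. The causes were not tested.

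Same-numbered libraries were not alike throughout: correlations of their deviations from the group means ran from -0.51 to 0.48, and at most 1 of 3 pairs in a comparison was over 0.1. Deviations within a group of 3 libraries are not independent of each other, so these values cannot exclude that the numbers pair samples. With the number and genotype as a replicate block and 18 separate libraries, 2 members were called between CD8 and CD4 cells in KO, and all-gene calls were 302 in WT, in place of 546, and 687 in KO, in place of 404. With the number alone as a block, 12 genes were called between KO and WT in CD8.

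Counts over all genes moved more. Between KO and WT the 1 call in CD8 ranged from 0 to 407 (47 with DESeq2, 3 with limma-voom, 375 with no filter, 407 without CD8 WT replicate 3), the 0 in CD4 from 0 to 17, and the 0 on average from 0 to 3. The differences of the KO effect ranged from 0 to 631 for CD4 minus CD8 and from 0 to 8 for Treg-labelled minus CD8 cells. CD8 against CD4 gave 126 to 687 in KO and 125 to 1035 in WT. With a fold change over 1.5 required, Treg-labelled cells gave 2746 in KO and 2343 in WT against CD4, and 2416 in KO and 3017 in WT against CD8. Depth limits Relb most, with 31 to 91 counts per library.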
